A study of Mus musculus with 4 samples.

Results

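Polyamine metabolism was followed through 10 genes in LL2 cells, a mouse tumour line derived from Lewis lung carcinoma, by bulk sequencing of polyadenylated RNA. The genes were taken from the deposited count table by a list of symbols: the synthesis genes Odc1, Amd1, Srm and Sms, the antizyme genes Oaz1 and Oaz2 with the antizyme inhibitor gene Azin1, and the catabolic genes Sat1, Smox and Paox. All 10 were found among the 54532 genes of the table, each once, and all were abundant enough to test. Cells of the treated group had lactic acid at 20 mM in their culture medium for 24 h, and cells of the control group had an equal volume of PBS, a buffered salt solution, over the same 24 h. There were 2 libraries in each group, named biological replicates in the labels. The labels do not say whether these came from separate cultures, so p-values rest on the spread between these libraries, estimated across genes. The labels name no genotype, clone or other agent, and the pH of the medium is not given in the sources used here.

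Polyamines are small positively charged molecules that bind nucleic acids and are needed for cell growth. Ornithine decarboxylase, encoded by Odc1, makes putrescine from ornithine, and spermidine synthase (Srm) and spermine synthase (Sms) extend it with aminopropyl groups. Those groups come from S-adenosylmethionine after decarboxylation by the enzyme of Amd1. Antizymes bind ornithine decarboxylase and send it to the proteasome, and the antizyme inhibitor of Azin1 resembles the decarboxylase and binds antizyme in its place. In catabolism, the acetyltransferase of Sat1 tags spermidine and spermine for export or for oxidation by the oxidase of Paox, while the oxidase of Smox acts on spermine directly and releases hydrogen peroxide. Much of the control in this pathway acts on translation and protein turnover, which RNA counts do not measure.

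The sequences below show 2 such control points, because they lie in the RNA that was counted. Antizyme is made only when ribosomes shift frame at an early stop codon, and high polyamine levels favour the shift. In the lines below, from GENCODE vM21 transcript models of mouse Oaz1 on chromosome 10 and Oaz2 on chromosome 9, capitals mark the slippery codon with the stop codon TGA, or what is left of them in models that omit a base.
Oaz1 with the stop codon: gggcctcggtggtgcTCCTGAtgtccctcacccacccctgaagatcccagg
Oaz1 without the base: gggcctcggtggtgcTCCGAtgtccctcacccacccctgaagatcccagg
Oaz2 with the stop codon: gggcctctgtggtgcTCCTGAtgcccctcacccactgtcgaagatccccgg
Oaz2 without the base: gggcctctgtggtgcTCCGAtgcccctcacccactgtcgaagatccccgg
The shorter lines come from models annotated as coding that leave out 1 base, which joins both reading frames, while another coding model of Oaz1 keeps it. Of 51 bases shown with the stop codon, 44 were identical between the genes. Amd1 RNA starts with a short upstream reading frame through which polyamines are known to slow translation of the enzyme. It lies on the minus strand at chr10:40302155-40302175 of GRCm38.p6 in the RefSeq window used here, with its start and stop codons in capitals below.
Amd1 upstream reading frame: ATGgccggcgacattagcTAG

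Promoter windows from RefSeq (GRCm38.p6, 250 bases before to 50 after a transcript start) were found for 8 of the 10 genes, and not for Srm and Azin1. Below stand those of Smox, which was higher with lactic acid, and of Odc1, which was lower, both on the plus strand.
Smox, chr2:131491612-131491911: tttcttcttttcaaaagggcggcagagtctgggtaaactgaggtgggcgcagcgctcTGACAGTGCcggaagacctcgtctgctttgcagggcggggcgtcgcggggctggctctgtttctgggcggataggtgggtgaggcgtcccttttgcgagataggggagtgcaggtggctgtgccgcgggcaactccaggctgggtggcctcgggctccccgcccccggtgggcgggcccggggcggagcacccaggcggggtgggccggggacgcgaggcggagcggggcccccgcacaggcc
Odc1, chr12:17544623-17544922: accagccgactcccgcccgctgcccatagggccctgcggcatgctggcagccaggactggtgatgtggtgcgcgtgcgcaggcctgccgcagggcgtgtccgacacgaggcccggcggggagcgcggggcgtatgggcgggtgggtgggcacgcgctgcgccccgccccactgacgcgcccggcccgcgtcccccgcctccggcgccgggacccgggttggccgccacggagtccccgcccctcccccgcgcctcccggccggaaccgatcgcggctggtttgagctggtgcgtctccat
Capitals in the Smox window mark its match to TGACNNNGC, the core of the antioxidant response element bound by NRF2, whose first base lies at -193 from the start. These letters, on either strand, occur in 12.4% of all 32851 mouse windows of the same length. The Oaz1 window also held a match, at -13, although the change of Oaz1 did not pass the test described below. The windows of Oaz2 and Paox, which were higher with lactic acid, held no match to it. One of the Sms windows held the E-box CACGTG, the letters bound by MYC and related factors (7.15% of windows). The Odc1 window held neither of these, nor the cAMP response element TGACGTCA (1.79%), nor TGATGNAA, the core bound by ATF4 with C/EBP factors (3.97%). The last 2 motifs were found in no window of the 8 genes, and no matches in these windows overlapped. Sequence outside these windows, such as the introns of Odc1, was not searched, so motifs may lie there. Matches are letters only, and binding was not measured.

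Depth was 15501006 and 16331584 counts in the lactic acid libraries and 16164237 and 17409990 in the PBS libraries, and 13922 genes were abundant enough to test. Of these, 49.0% had an adjusted p below 0.05 (edgeR quasi-likelihood test, Benjamini-Hochberg adjustment), and in 72.3% the groups did not overlap. Because RNA came from whole cultures, fewer cells making a transcript and less of it per cell cannot be told apart. Mitochondrial transcripts made up 2.25% to 2.29% of counts. The lung epithelial markers Nkx2-1, Sftpb, Sftpc and Scgb1a1 had 0 to 7 counts a library and the epithelial markers Epcam and Cdh1 had 0 to 2, and the sum over 5 epithelial markers was 153 CPM in each lactic acid library and 214 to 221 CPM with PBS. Of these, Krt8 stood at 52.7 and 54.0 CPM with lactic acid and 119 and 116 CPM with PBS, and Krt18 at 99.8 and 98.4 CPM with lactic acid and 101.5 and 97.2 CPM with PBS. The mesenchymal markers Vim, Fn1 and Cdh2 summed to 5337 to 5385 CPM with lactic acid and 5387 to 5396 CPM with PBS. Vim was at 3318 and 3371 CPM with lactic acid and 4061 and 4046 CPM with PBS, and Fn1, the other way, at 2003 and 1996 CPM, against 1306 and 1332 CPM. Summed over 6 leukocyte markers, the level was 6.99 and 7.92 CPM with lactic acid and 4.22 and 4.55 CPM with PBS, nearly all from Cd68, with Adgre1 and Cd3e at 0 counts in every library. The part of these markers in the results was not tested. CPM are counts scaled by TMM-adjusted library size and compare a gene between libraries, whereas the authors' FPKM also divide by gene length and serve to compare genes.

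Among the 10 genes, Smox, Paox and Oaz2 rose with lactic acid and Odc1, Srm and Azin1 fell, while Amd1, Sms, Oaz1 and Sat1 did not pass. That is 6 of 10, against 49.0% of all genes tested, of which 24.7% were higher and 24.3% lower. By role, synthesis held 0 higher and 2 lower genes of 4, the antizyme system 1 and 1 of 3, and catabolism 2 and 0 of 3. Changes were small. The median log2 fold change of the 10 was 0.02, against 0.01 over all genes tested, and the median of its size was 0.13, against 0.26. In 8 of the 10 genes the change was under 1.2-fold, as it was in 51.5% of all genes tested. The groups did not overlap in 8 of the 10, against 72.3% of all genes. Scaling by library totals alone moved the median of all genes to 0.05, and the counts were then 5 higher and 1 lower. In that fit Azin1 was the only lower gene, so neither Odc1 nor Srm was called, and Sms was called higher. The balance of higher and lower genes, also by role, thus moved with the scaling.

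**Figure D1:**
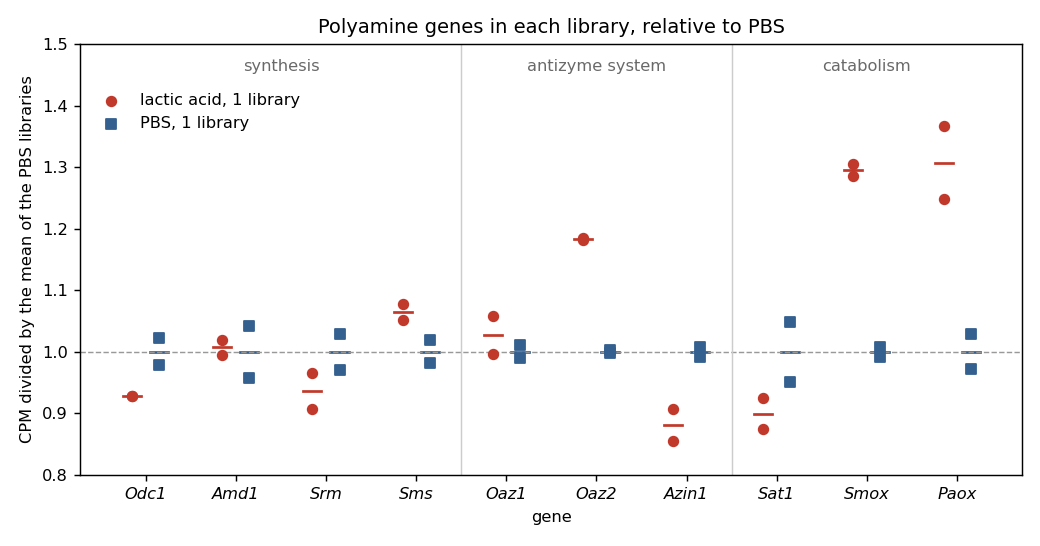
CPM of each polyamine gene in each library, divided by the mean of the PBS libraries of that gene (circles, lactic acid; squares, PBS; short lines, group means; dashed line, 1). Lactic acid libraries lie at 1.25 to 1.37 for Paox, 1.29 to 1.31 for Smox and 1.18 for Oaz2, and at 0.855 to 0.906 for Azin1.

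Per length, Oaz1, Odc1 and Srm were the most abundant and the oxidase genes Smox and Paox the least. Oaz1 averaged 197 FPKM with lactic acid and 193 FPKM with PBS, and Odc1 165 and 179 FPKM. Srm followed at 128 FPKM with lactic acid and 138 FPKM with PBS, and Amd1 at 45.8 and 45.9 FPKM. Azin1 and Oaz2 were neighbours that changed places: Oaz2 averaged 28.3 and Azin1 27.0 FPKM with lactic acid, against 24.1 and 31.0 FPKM with PBS, and within each group the libraries of these genes did not overlap. Sms (18.7 and 17.7 FPKM), Sat1 (14.1 and 15.8 FPKM), Smox (9.95 and 7.75 FPKM) and Paox (2.76 and 2.13 FPKM) completed the order, with lactic acid given before PBS. Taken over all 4 libraries, the ranges of Azin1 and Oaz2 overlapped, and those of no other neighbours in this order did. The order rests on the gene lengths of the table.

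**Figure D2:**
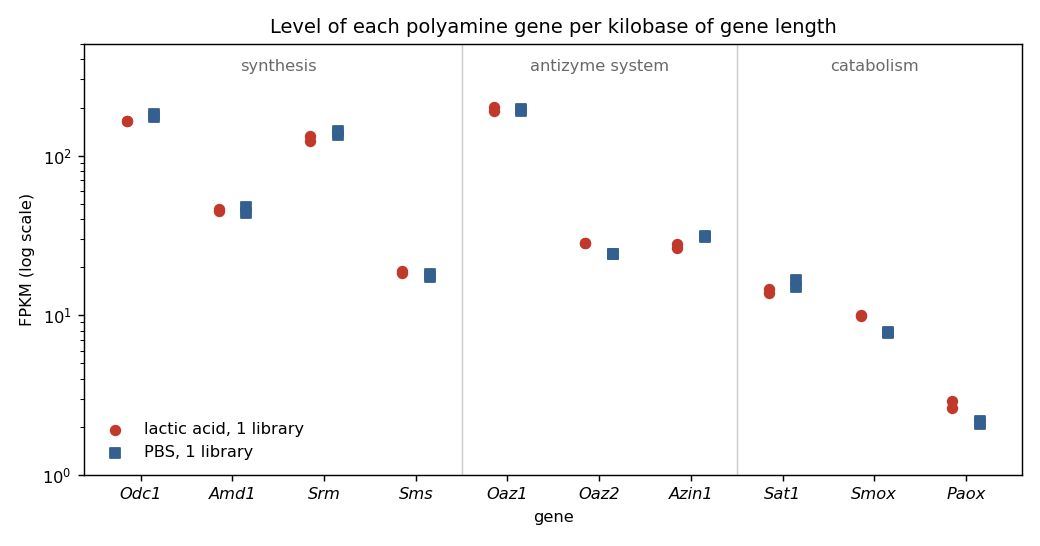
FPKM of each polyamine gene in each library, on a log scale (circles, lactic acid; squares, PBS). Levels run from 2.07 FPKM for Paox to 203 FPKM for Oaz1, and only Azin1 and Oaz2 change places between the groups.

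Odc1, which spans 17544794 to 17551505 of chromosome 12 (plus strand, GRCm38), encodes the first enzyme of the pathway. It measured 567 and 566 CPM in the lactic acid libraries, against 624 and 597 CPM in the PBS libraries. Both lactic acid libraries lay below both PBS libraries. The fall was 7.20%, a log2 fold change of -0.11 (SE 0.03, edgeR adjusted p = 0.000861). Without PBS replicate 1 the log2 fold change was -0.08 and the call was lost (edgeR adjusted p = 0.0550), as it was with scaling by library totals (-0.06, edgeR adjusted p = 0.0532).

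Srm, at 148591503 to 148594993 of chromosome 4 (plus strand), makes spermidine from putrescine. Its level was 212 and 200 CPM with lactic acid and 214 and 227 CPM with PBS. The groups were apart, but lactic acid replicate 1 lay close to PBS replicate 1. The log2 fold change was -0.10 (SE 0.04, edgeR adjusted p = 0.0303). It failed the test in 8 of 15 alternatives, for example without lactic acid replicate 2 (-0.05, edgeR adjusted p = 0.357) and without PBS replicate 2 (-0.06, edgeR adjusted p = 0.328).

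Sms, which makes spermine from spermidine, lies at 157443855 to 157492287 of chromosome X (minus strand). It stood at 115 and 112 CPM with lactic acid and 108 and 105 CPM with PBS, with the groups apart. The log2 fold change of 0.09 (SE 0.04) did not pass (edgeR adjusted p = 0.0799). Its reads can be shared with the pseudogene Sms-ps, identical to it over 1101 aligned bases, and with 2 less alike copies. The 3 copies held 459 and 486 counts with lactic acid, against 408 and 329 with PBS. With the copies added to Sms, an alternative chosen after seeing the data, the log2 fold change was 0.15 (SE 0.04) and passed (edgeR adjusted p = 0.00246). It also passed with upper-quartile factors (0.11, edgeR adjusted p = 0.0328) and with library totals (0.14, edgeR adjusted p = 0.00776).

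Amd1, at 40287458 to 40302186 of chromosome 10 (minus strand), encodes the decarboxylase that supplies aminopropyl groups. Its libraries measured 162 and 166 CPM with lactic acid and 169 and 156 CPM with PBS. Both lactic acid values fell between the PBS values. The log2 fold change was 0.01, with a 95% interval of -0.07 to 0.09 (edgeR adjusted p = 0.846), and its sign turned without PBS replicate 2 (-0.06), without lactic acid replicate 2 (-0.01) and in the FPKM fits. Amd2, a copy with 99.56% identity to Amd1 over 3202 bases, held 48 and 72 counts with lactic acid and 37 and 47 with PBS, and reads may be split between the genes.

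Oaz1 and Oaz2 encode the widely expressed antizymes. Oaz1, at 80826656 to 80829290 of chromosome 10 (plus strand), measured 524 and 493 CPM with lactic acid and 501 and 490 CPM with PBS. The groups overlapped. Its log2 fold change was 0.04, with a 95% interval of -0.02 to 0.10 (edgeR adjusted p = 0.300). It turned to -0.01 without lactic acid replicate 1, and it passed at 0.08 without lactic acid replicate 2 (edgeR adjusted p = 0.0480) and with library totals (0.08, edgeR adjusted p = 0.0158).

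Oaz2, at 65668001 to 65690300 of chromosome 9 (plus strand), stood at 85.3 and 85.2 CPM with lactic acid and 72.2 and 71.9 CPM with PBS. Each group was tight and the groups were well apart. Oaz2 rose 1.18-fold, a log2 fold change of 0.24 (SE 0.05, edgeR adjusted p = 8.11e-05), and the call held in all 15 alternatives, with log2 fold changes of 0.22 to 0.29. The pseudogene Oaz2-ps, 98.73% identical over 471 bases, held 10 to 29 counts a library.

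Azin1, at 38487427 to 38519266 of chromosome 15 (minus strand), measured 176 and 166 CPM with lactic acid, against 195 and 192 CPM with PBS. Both lactic acid libraries lay below both PBS libraries. Azin1 fell by 12.0%, a log2 fold change of -0.18 (SE 0.04, edgeR adjusted p = 5.20e-05), and the call held in all 15 alternatives (-0.23 to -0.14).

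Smox, the spermine oxidase gene at 131491496 to 131525922 of chromosome 2 (plus strand), showed 39.4 and 38.8 CPM with lactic acid and 30.4 and 29.9 CPM with PBS. Libraries of a group were close to each other and the groups were well apart. Smox rose 1.30-fold, with a 95% interval of 1.16-fold to 1.44-fold (log2 fold change 0.37, SE 0.08, edgeR adjusted p = 5.41e-05). The call held in all 15 alternatives (0.32 to 0.42).

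Paox, the oxidase gene for acetylated polyamines at 140115799 to 140137224 of chromosome 7 (plus strand), had the fewest counts of the 10, with 205 and 236 counts with lactic acid and 161 and 184 counts with PBS. These are 13.0 and 14.3 CPM, against 10.1 and 10.7 CPM, with the groups apart. Paox rose 1.31-fold, with a 95% interval of 1.08-fold to 1.58-fold (log2 fold change 0.39, SE 0.13, edgeR adjusted p = 0.0142). It failed the test in 5 of 15 alternatives, for example without lactic acid replicate 2 (0.32, edgeR adjusted p = 0.122) and without PBS replicate 1 (0.34, edgeR adjusted p = 0.0808). Echs1 overlaps Paox on the other strand by 678 bases and held 925 and 884 counts with lactic acid and 839 and 979 with PBS. Because the library kit does not mark strand, reads of the overlap cannot be told apart. A pseudogene, Gm19680, is 99.93% identical over 1358 bases, and with its counts added the log2 fold change of Paox was 0.29 (edgeR adjusted p = 0.0436).

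Sat1, the acetyltransferase gene at 155213132 to 155216449 of chromosome X (minus strand), measured 38.3 and 40.5 CPM with lactic acid and 46.0 and 41.7 CPM with PBS. Lactic acid replicate 2 was close to PBS replicate 2, though the groups did not overlap. The log2 fold change of -0.15 (SE 0.07) did not pass (edgeR adjusted p = 0.0800), with a 95% interval of -0.30 to -0.01. It passed without PBS replicate 2 (-0.23, edgeR adjusted p = 0.0223).

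**Figure D3:**
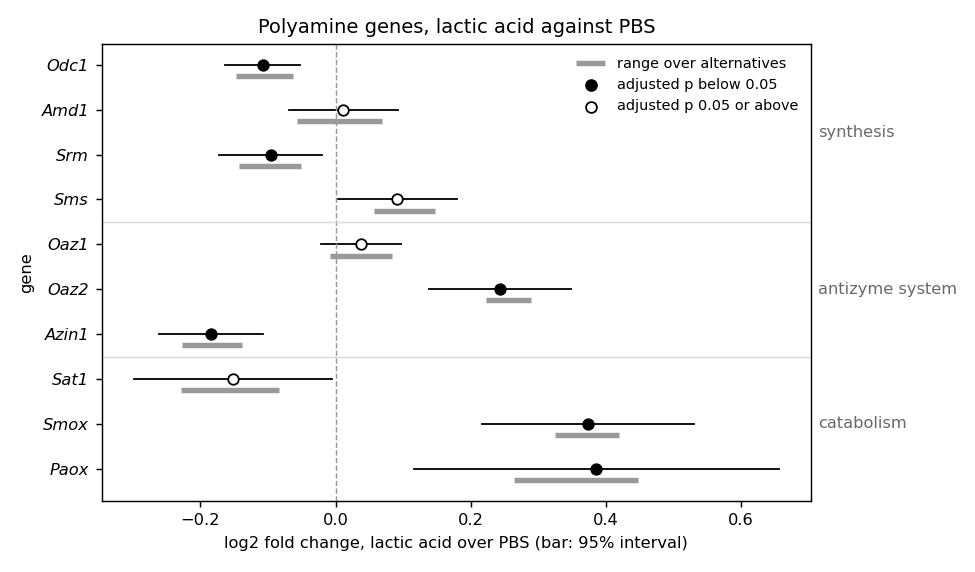
Log2 fold change of each polyamine gene, lactic acid over PBS (circles, filled where the edgeR adjusted p is below 0.05; black lines, 95% intervals; grey bars, range over 15 alternative fits). The grey bars of Sms, Oaz2, Smox and Paox stay above 0 and those of Odc1, Srm, Azin1 and Sat1 below 0, while those of Amd1 and Oaz1 cross it.

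Sums over roles were taken on the FPKM scale as a description, with no test. The antizyme genes Oaz1 and Oaz2 together stood at 231 and 219 FPKM with lactic acid and 220 and 215 FPKM with PBS. Those values overlapped between the groups. Odc1 and Azin1, whose products bind antizyme, summed to 193 and 191 FPKM with lactic acid, against 214 and 206 FPKM with PBS. The ratio of the first sum to the second was 1.20 and 1.15 with lactic acid and 1.03 and 1.05 with PBS, so it was higher in both lactic acid libraries. The second sum leaves out Azin2, another antizyme inhibitor gene, which averaged 2.31 FPKM with lactic acid and 0.298 FPKM with PBS. The 4 synthesis genes summed to 361 and 354 FPKM with lactic acid and 383 and 378 FPKM with PBS. For the 3 catabolic genes the sums were 26.3 and 27.2 FPKM, against 26.5 and 24.9 FPKM, and the groups overlapped.

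The wider pathway was described through 31 further genes, of which 23 were tested. Of those 23, 9 were higher and 6 lower with lactic acid, a share of 65.2% against 49.0% of all genes tested, with a median log2 fold change of 0.04. The 8 genes not tested were Arg1, Arg2, Agmat, Oaz3, Mat1a, Slc7a2, Slc12a8 and Mycn, with 0 to 8 counts a library. Arg1 and Arg2, the arginase genes that yield ornithine from arginine, were among these, with 7 counts or fewer. Oat, an aminotransferase that links ornithine with glutamate and proline, measured 117 and 116 CPM with lactic acid and 116 and 111 CPM with PBS and did not pass (log2 fold change 0.04, edgeR adjusted p = 0.523). The mitochondrial ornithine carrier gene Slc25a15 was higher, at 26.8 and 26.9 CPM with lactic acid, against 20.6 and 22.5 CPM with PBS (log2 change 0.32, edgeR adjusted p = 0.00370). It failed the test with PBS replicate 1 left out (0.25, edgeR adjusted p = 0.0679) and with DESeq2 (adjusted p = 0.0715).

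The widest change of all 33 genes tested was that of Azin2, a second antizyme inhibitor known mainly from brain and testis. It had 157 and 145 counts with lactic acid and 14 and 26 counts with PBS, or 9.98 and 8.76 CPM against 0.882 and 1.52 CPM. Both PBS libraries were low and both lactic acid libraries several times higher. Azin2 rose 7.70-fold, with a 95% interval of 5.47-fold to 10.8-fold (log2 fold change 2.94, SE 0.25, edgeR adjusted p = 1.06e-15). It passed in all 14 alternatives that kept the gene, but its size depended on the pseudocount, with a log2 change of 1.35 on log2(FPKM + 1) and 2.62 on log2(FPKM + 0.1), scales that understate changes of low genes. Its level per length stayed small beside its relative, at 2.31 FPKM with lactic acid, where Azin1 had 27.0 FPKM, and at 0.298 FPKM with PBS, where Azin1 had 31.0 FPKM. The antisense gene Gm15904 overlaps it and held 0 to 4 counts a library. Sat2, a relative of Sat1, rose 1.76-fold, with 7.43 CPM in each lactic acid library and 4.10 and 4.32 CPM in the PBS libraries (log2 fold change 0.82, SE 0.19, edgeR adjusted p = 0.000336). Amd2 had a log2 fold change of 0.54 that did not pass (edgeR adjusted p = 0.0939), except without lactic acid replicate 1 (0.77, edgeR adjusted p = 0.0404).

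S-adenosylmethionine supply and the salvage of methylthioadenosine, the by-product of spermidine and spermine synthesis, held 2 higher and 3 lower genes of 8 tested, or 62.5% called against 49.0% of all genes. Mat2a, which encodes the synthase that makes S-adenosylmethionine outside the liver, measured 273 and 280 CPM with lactic acid, against 369 and 370 CPM with PBS. It fell by 25.2% (log2 fold change -0.42, SE 0.03, edgeR adjusted p = 4.56e-17). Its regulatory subunit gene Mat2b was at 71.0 and 72.9 CPM, against 72.1 and 73.8 CPM, and did not pass (log2 fold change -0.02, edgeR adjusted p = 0.789). Mtap, the phosphorylase that opens the salvage, fell by 24.2%, at 201 and 203 CPM with lactic acid and 264 and 268 CPM with PBS (a log2 change of -0.40, edgeR adjusted p = 9.64e-15). The next enzyme, the isomerase of Mri1, went the other way and rose 1.30-fold (85.3 and 84.2 CPM, against 63.9 and 66.8 CPM, edgeR adjusted p = 3.33e-08). Apip, the dehydratase that follows, fell by 42.4%, at 7.94 and 7.13 CPM with lactic acid and 14.2 and 12.0 CPM with PBS (edgeR adjusted p = 8.42e-06). Enoph1 and Adi1, which act after it, had log2 fold changes of -0.12 and -0.01 and did not pass, although Enoph1 passed without lactic acid replicate 2 (-0.27, edgeR adjusted p = 0.0443). Got1, an aminotransferase with many other roles, rose 1.22-fold.

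Spermidine also supplies the hypusine residue of the translation factor eIF5A. Eif5a itself, among the most abundant RNAs here, measured 1327 and 1313 CPM with lactic acid, against 1585 and 1643 CPM with PBS. It fell by 18.2% (log2 fold change -0.29, SE 0.02, edgeR adjusted p = 5.63e-18). The enzyme gene Dhps, which begins hypusine synthesis, fell by 14.6%, at 41.4 and 39.0 CPM with lactic acid and 46.8 and 47.4 CPM with PBS (edgeR adjusted p = 0.00539). That call was lost without lactic acid replicate 2 (log2 fold change -0.19, edgeR adjusted p = 0.102) and with DESeq2 (adjusted p = 0.0666). Wdr83 overlaps Dhps on the other strand by 128 bases and held 225 to 274 counts a library. Dohh, which completes hypusine, had a log2 fold change of 0.14 that did not pass (edgeR adjusted p = 0.339). Eif5a2, a scarce relative of Eif5a, rose 1.29-fold, at 10.5 and 12.1 CPM with lactic acid and 8.25 and 9.22 CPM with PBS (edgeR adjusted p = 0.0325). Without lactic acid replicate 2 (log2 fold change 0.27, edgeR adjusted p = 0.250) or without PBS replicate 1 (0.29, edgeR adjusted p = 0.185) it did not pass, nor with DESeq2 (adjusted p = 0.195) or in either limma fit of FPKM.

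**Figure D4:**
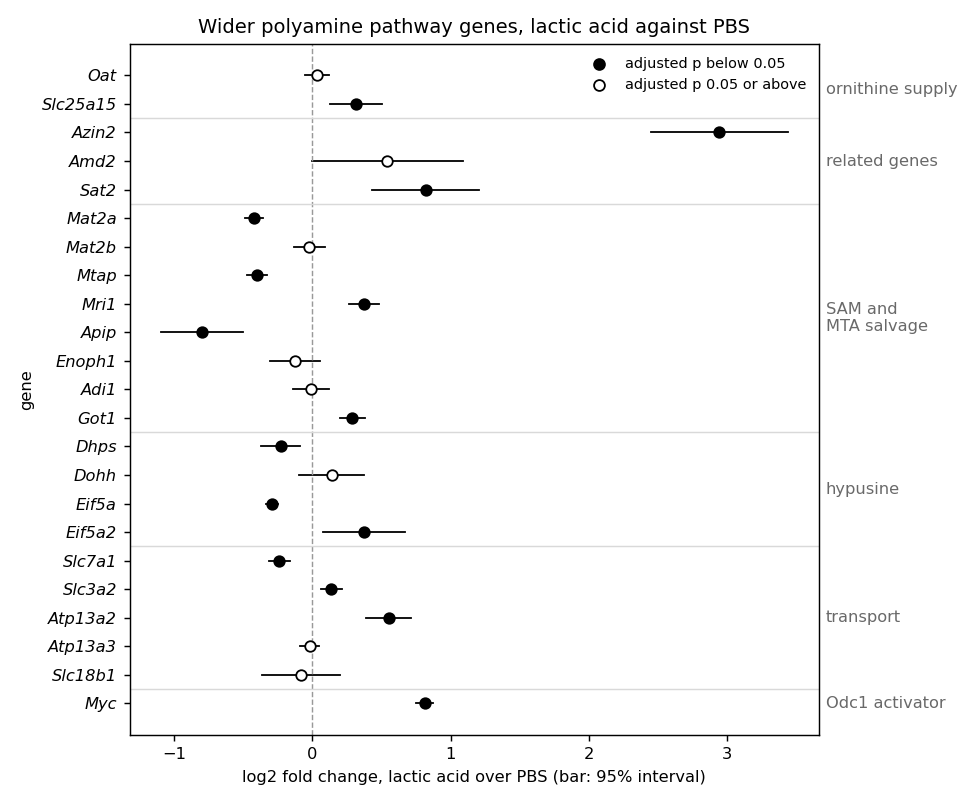
Log2 fold change of the 23 wider pathway genes tested, lactic acid over PBS, by role (circles, filled where the edgeR adjusted p is below 0.05; lines, 95% intervals; SAM, S-adenosylmethionine; MTA, methylthioadenosine). Azin2 stands at 2.94, Sat2 and Myc follow at 0.82 and 0.81, and Apip is lowest at -0.80.

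Of 5 transport genes tested, 2 were higher and 1 lower, or 60.0% called against 49.0% of all genes. Atp13a2, a lysosomal pump that moves polyamines into the cytosol, rose 1.47-fold, at 38.8 and 37.8 CPM with lactic acid and 25.5 and 26.7 CPM with PBS (a log2 change of 0.55, SE 0.08, edgeR adjusted p = 4.87e-08). Its relative Atp13a3 measured 251 and 252 CPM with lactic acid and 256 and 253 CPM with PBS and did not pass (log2 fold change -0.02, edgeR adjusted p = 0.703). Slc7a1, the main importer of arginine, fell by 15.2%, at 169 and 175 CPM with lactic acid and 204 and 202 CPM with PBS (edgeR adjusted p = 2.46e-07). Slc3a2, a subunit of amino acid transporters, rose 1.10-fold (176 and 186 CPM, against 163 and 166 CPM, edgeR adjusted p = 0.00234), and the call was lost in 4 of 15 alternatives: DESeq2 (adjusted p = 0.0604), both limma fits of FPKM (adjusted p = 0.0549 and 0.0534) and without lactic acid replicate 2 (log2 fold change 0.09, edgeR adjusted p = 0.102). Slc18b1, a vesicular polyamine transporter, had a log2 fold change of -0.08 that did not pass (edgeR adjusted p = 0.659). Myc, whose product is a known activator of Odc1 transcription, rose 1.76-fold, at 578 and 587 CPM with lactic acid and 331 and 333 CPM with PBS (a log2 change of 0.81, SE 0.03, edgeR adjusted p = 5.03e-32), while Odc1 was 7.20% lower in the same libraries.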

How the data were processed

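Reads of 4 libraries of LL2 cells were counted by the authors before deposit. The authors deposited whole-number counts per gene with no scaling, and FPKM values, which the table shows to be count over gene length with 1 constant per library (relative tolerance 1e-06), at 0.982 to 1.025 times its total. The tools named in the submitters' processing notes, with no step assigned, were StringTie 1.3.3b, featureCounts 1.5.0-p3, DESeq2 1.16.1, HISAT2 2.0.5 and CASAVA. They name mm10 and GRCm38.p6 as builds. The handling of strand and of reads mapping to several places is not given in the sources used here. Per the labels' protocols, the kit was NEBNext Ultra, which does not mark strand.

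The tests used R 4.3.3 and edgeR 4.0.16: filterByExpr (minimum count 10, minimum total 15), TMM factors of 0.983 to 1.017, a robust quasi-likelihood fit with the group as its only term, and a two-sided test adjusted after Benjamini-Hochberg for the 13922 genes that passed the filter (threshold 0.05). The standard error is the size of the log2 fold change over the square root of F, and CPM use TMM-scaled library sizes. At this depth 3 counts correspond to 0.172 to 0.194 CPM, a floor that covers counting error alone because PCR duplicates are not marked. With 2 libraries against 2, an exact permutation test of a single gene cannot go below a two-sided p of 0.333, so calls depend on a spread estimated across genes. Replicates differed by more than sampling noise (chi-square per degree of freedom 2.85 and 2.37). The procedure was tested on counts simulated from its own fitted spread, which cannot show whether that spread holds for these libraries. The smallest change put into the simulation was larger than those of Odc1, Srm and Azin1.

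Named genes are the 10 members and every wider pathway gene kept by the filter. The members were picked by symbol, with no measured value in the rule, but they and the lists were chosen with earlier results of these data known. Alternatives were other scalings, filters, DESeq2 1.42.0, limma 3.58.1 on log2(FPKM + 1) and log2(FPKM + 0.1), a replicate block, and each library left out. Near-identical copies were sought with blastn 2.17.0 on GENCODE vM21 transcripts (at least 95% identity over 300 bases), and adding their counts was an alternative chosen after seeing the data.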

Additional observations from a re-analysis of the deposited data

How the results depend on the processing

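Over 15 alternatives, Oaz2, Smox and Azin1 kept their direction and their side of the threshold. The count of all genes called higher was 2251 with the DESeq2 Wald test, against 3445, and 2853 to 3022 with 1 library left out, where 2953 to 3142 were lower. DESeq2 called 2494 genes lower, against 3377. It called 2 of the 10 polyamine genes higher and 2 lower, with 34.1% of all genes called. Both limma fits of FPKM also gave 2 higher and 2 lower, with 40.7% and 40.6% of all genes called. Scaling by library totals gave 5 of the 10 polyamine genes higher and 1 lower. That scaling moved the share of higher genes among all calls to 58.6%, against 50.5%. Leaving out 1 library gave 2 to 3 higher and 2 to 3 lower among the 10, and 7 to 10 higher and 6 lower among the wider genes. Signs turned only for genes that did not pass. Amd1 was at -0.000634 with limma on log2(FPKM + 1), at -0.000624 with a pseudocount of 0.1, and at -0.0567 to 0.0692 with 1 library left out. With upper-quartile factors Adi1 was at 0.0095 and Atp13a3 at 0.0011, and with library totals they were at 0.0357 and 0.0273 and Mat2b at 0.0247. With 1 library left out, Adi1 ran from -0.0562 to 0.0293, Enoph1 from -0.27 to 0.0021, Oat from -0.0093 to 0.0704, Oaz1 from -0.0079 to 0.0808 and Slc18b1 from -0.20 to 0.0359. The cause of these shifts was not tested. The replicate numbers share no stated culture or day, and deviations of same-numbered libraries correlated at 0.0038. With the replicate number as a block, 3459 genes were higher and 3393 lower, with 3 higher and 3 lower among the 10, and no call of a named gene changed. With 161 to 236 counts a library, the log2 fold change of Paox carried an error (SE) of 0.13, against 0.03 for Odc1, so small changes of the scarce genes were not detectable at this depth.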
